A study of Mus musculus with 12 samples.

Results

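Myosins, troponins and tropomyosins form and regulate the motor of muscle and of the cytoplasmic actin network. Myosin II is built of heavy chains, which hydrolyse ATP and pull on actin, and of paired essential and regulatory light chains. In striated muscle, troponin C binds calcium, troponin I inhibits contraction and troponin T anchors both to tropomyosin, a coiled coil that lies along the actin filament. Non-muscle cells have no troponin system, and use non-muscle heavy and light chains with cytoplasmic tropomyosins in stress fibres, cell division and cell shape. Fibroblasts are known for abundant stress fibres, and embryonic stem cells for few.

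The members were all array probes whose gene symbol in the platform annotation begins with Myh, Myl, Tnnc, Tnni, Tnnt or Tpm followed by a digit. This rule gave 29 genes with 41 probes, out of 15366 genes and 46657 probes on the array. By known role, 16 genes with 18 probes belong to striated muscle, 1 gene (Myh11) to smooth muscle, and 7 genes with 13 probes are non-muscle chains. The 3 tropomyosin genes, with 7 probes, make muscle and cytoplasmic isoforms. The other 2 are Tnni3k, a kinase named for its interaction with cardiac troponin I and no part of troponin, and the light chain gene Myl10.

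Transcripts were measured on 12 Illumina bead arrays of mouse cells, in 4 groups of 3. MEF were FVB/N primary embryo fibroblasts that carry neomycin resistance. Sphere cells, which the labels call converted, derive from FVB/N MEF grown with AlbuMAX I, a lipid-rich serum albumin, and were sampled at passage 5 and at passage 15. MES were J11 embryonic stem cells of strain 129/Sv, which the study took as its reference, so comparisons with MES also cross strains. The labels do not say whether the 3 arrays of a group came from separate cultures, and p-values then measure only the spread between these arrays. The spheres are cells that no label describes as sorted.

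Each array had 15761 to 19060 probes above background (detection p under 0.05), and passage 15 replicate 3 had the fewest. All passage 15 and MES arrays were on chip 1, where the count was 15761 to 17234, and the other groups shared chips 2 and 3. Passage 15 against MEF or passage 5, and MES against MEF or passage 5, therefore cannot be told apart from chip. Of 9 fibroblast markers on the array, 9 were above background on every MEF array, 6 on every passage 5 array, 4 on every passage 15 array and 4 on every MES array. The pluripotency factor Pou5f1 averaged 11.55 ± 0.47 on the log2 scale in the MEF group (SD, n = 3), with 11.41 ± 0.32 in passage 5 spheres, 12.61 ± 0.17 in passage 15 spheres and 12.69 ± 0.08 in MES. The arrays labelled MEF thus go against a pure fibroblast label, which touches every comparison with them.

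Levels are given as background-corrected, quantile-normalized log2 intensities, on which a difference of 1 is 2-fold. The lowest level of a probe above background was 4.92 to 5.27, depending on the array. A probe was called higher or lower at a Benjamini-Hochberg adjusted p under 0.05 in limma, over 19444 probes, with a change of at least 2-fold. Of the 41 member probes, 34, from 25 genes, were above background on all 3 arrays of at least 1 group and were tested. The 7 others were both probes of the cardiac heavy chain gene Myh6, 1 of 2 probes of Myh7, 1 of 3 probes of Myh10, and the only probes of Myh8, a perinatal skeletal heavy chain gene, Myl10 and Tnni3k. Across the 34, 21 were above background in all 4 groups, 7 in the MEF group alone, 3 at passage 5 alone, 2 in MEF and passage 5, and 1 in both sphere groups. A probe that passed through 1 group alone was selected for its level there, which favours a difference from the rest. Counts are therefore given below also for the 21 probes above background on all 12 arrays.

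In passage 5 spheres, 17 of the 34 probes were lower than on the arrays labelled MEF and 1 was higher. The fall took in 7 of the 8 tested troponin genes, the slow and cardiac heavy chain gene Myh7, the embryonic and atrial light chain gene Myl4, Tpm1 and Tpm2, the fast light chain gene Myl1, the smooth muscle heavy chain gene Myh11, and among non-muscle genes Myh9, Myh10 and Myl12a. The 1 gene that rose was Myl3, the ventricular and slow-muscle essential light chain. Over all 19444 probes, 6.02% were lower and 3.92% higher in the same comparison. Of the 21 members above background on all 12 arrays, 8 were lower and 0 higher by limma. At an unadjusted p under 0.05, 14 were lower and 2 higher. The median log2 difference was -1.04 for the 34 probes, -0.65 for the 21, and 0.04 for all probes tested.

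In passage 15 spheres, 16 of the 34 were lower than on the arrays labelled MEF and 3 were higher, these being the light chain genes Myl2 and Myl7 and 1 probe of Tpm3. Over all probes 15.2% were lower and 13.2% higher. Among the 21 members above background on all 12 arrays, 7 were lower and 2 higher, and their median was -0.21, against 0.09 for all probes. Passage 5 and passage 15 were set against the same MEF arrays, so their values are given side by side and no agreement between them is drawn.

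By class, the striated muscle genes had 10 of 14 probes lower and 1 higher at passage 5, and 9 lower and 2 higher at passage 15, with medians of -1.67 and -1.87. These 14 include Tnnt2, Tnnt3, Tnni1, Tnni2 and Myl1, which were kept through the MEF group alone, so that the filter itself favoured a fall. Of the 5 striated probes above background on all 12 arrays, 3 were lower and 0 higher at passage 5, and 2 lower and 1 higher at passage 15. Their medians were -1.45 and -0.87. At an unadjusted p under 0.05 in limma, 3 of the 5 were lower and 1 higher at passage 5. The non-muscle genes had 3 of 12 lower at passage 5 and 2 of 12 at passage 15, none higher, with medians of -0.64 and -0.21. At an unadjusted p under 0.05 in limma, 2 non-muscle probes were higher and 8 lower at passage 5, and 1 higher and 5 lower at passage 15. Tropomyosin probes were lower in 3 of 7 cases at passage 5 and in 4 of 7 at passage 15, where 1 was higher. Over all probes 6.02% were called lower and 3.92% higher at passage 5, and 15.2% lower and 13.2% higher at passage 15. The 2 of 12 non-muscle probes called lower at passage 15 lay near that share. The difference between the classes was not tested.

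**Figure D1:**
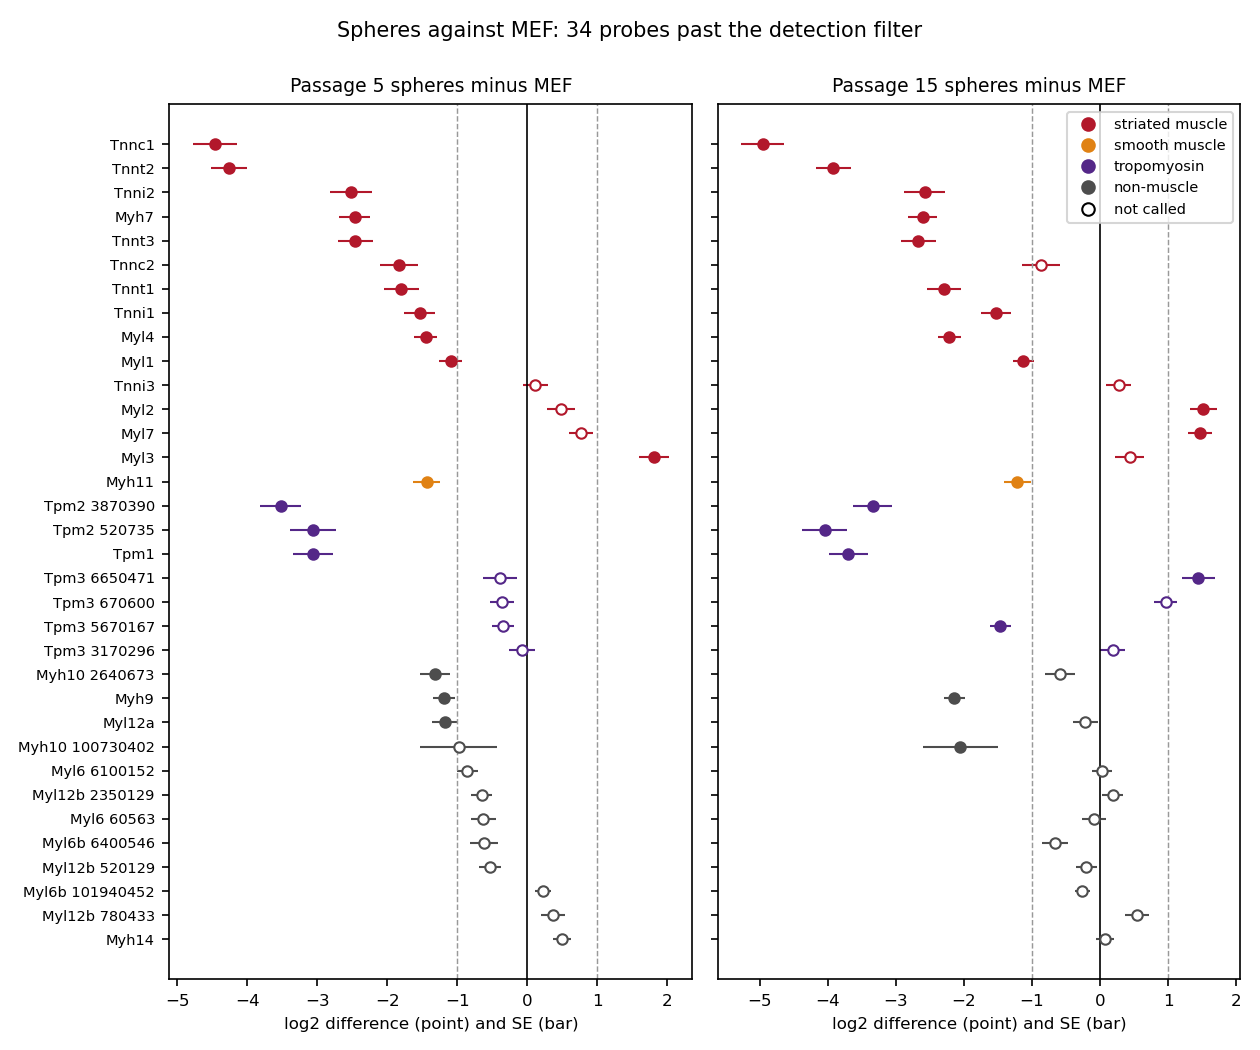
Log2 difference in intensity (x axis) of the 34 tested probes, for passage 5 spheres minus MEF (left) and passage 15 spheres minus MEF (right). Points are estimates and bars their SE (n = 3 arrays per group), filled points were called, dashed lines mark 2-fold, and numbers after a symbol name the probe. Tnnc1 and Tnnt2 lie farthest to the left on the passage 5 side, and the 4 probes of Tpm3 spread from -1.46 to 1.44 on the passage 15 side.

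Troponin C of slow and cardiac muscle, the calcium sensor encoded by Tnnc1, had log2 intensities of 5.68, 5.76 and 6.0 in passage 5 spheres, against 9.50, 10.22 and 11.10 on the arrays labelled MEF. At passage 15 it stood at 5.15, 5.10 and 5.68, above background on 2 of 3 arrays, and in MES at 4.94, 4.66 and 5.08, above background on 0. Every MEF array lay above every sphere and MES array. The difference was -4.46 at passage 5 (SE 0.31, adjusted p = 1.28e-06) and -4.96 at passage 15 (SE 0.31, adjusted p = 2.22e-07). Within chip 2 the passage 5 difference was -4.14, and between the single arrays of chip 3 it was -5.10.

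Tnnt2, which encodes the cardiac troponin T that ties the complex to tropomyosin, had levels of 4.62, 4.67 and 4.52 at passage 5 and 4.94, 4.99 and 4.90 at passage 15. None of these was above background, while the arrays labelled MEF stood at 8.22, 8.80 and 9.57. It was at least 15.2-fold lower at passage 5 (adjusted p = 3.79e-07) and at least 13.1-fold lower at passage 15 (adjusted p = 2.61e-07), counting the sphere arrays at their background level. In MES it was above background on 1 of 3 arrays.

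The fast skeletal troponin genes had lower levels in the same comparison. Tnnt3, fast troponin T, was at 4.69, 4.87 and 4.56 at passage 5, against 6.47, 7.16 and 7.86 on the arrays labelled MEF, and was at least 4.66-fold lower. Tnni2, fast troponin I, was at 4.48, 4.67 and 4.46, against 6.39, 6.74 and 8.02, and was at least 4.3-fold lower. At passage 15 the bounds were 4.02-fold for Tnnt3 and 3.71-fold for Tnni2. Neither gene was above background on any sphere or MES array, and MEF replicate 3 was the highest array for both.

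Tnnc2, fast troponin C, had 5.08, 5.14 and 5.41 at passage 5 and 6.19, 6.15 and 6.17 at passage 15, against 6.38, 6.90 and 7.85 on the arrays labelled MEF. It fell at passage 5 (-1.83, SE 0.27, adjusted p = 0.0003) and missed the 2-fold threshold at passage 15 (-0.87, SE 0.27, adjusted p = 0.0135). Without MEF replicate 1 the passage 15 value became -1.20 and passed. The passage 15 arrays lay between the other groups with no overlap.

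Slow troponin I, encoded by Tnni1, was above background only on the MEF arrays (5.49, 6.02 and 6.65), and was at least 2.16-fold lower at passage 5 and at least 1.86-fold lower at passage 15. Tnnt1, slow troponin T, was measured on all 12 arrays, at 7.19, 7.08 and 7.25 at passage 5 and 6.54, 6.66 and 6.84 at passage 15, against 8.45, 8.84 and 9.64 in the MEF group. The difference was -1.80 at passage 5 (SE 0.25, adjusted p = 0.00019) and -2.29 at passage 15 (SE 0.25, adjusted p = 8.43e-06). In MES it stood at 8.04, 7.41 and 7.87, between the other groups.

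Tnni3, cardiac troponin I, was the 1 tested troponin gene that was called in none of the 6 comparisons. Its levels were 5.99, 6.17 and 6.02 on the arrays labelled MEF, 6.18, 6.09 and 6.26 at passage 5, 5.90, 6.48 and 6.63 at passage 15, and 6.87, 6.47 and 6.70 in MES. The difference from the MEF group was 0.12 at passage 5 (SE 0.18, adjusted p = 0.711) and 0.27 at passage 15 (SE 0.18, adjusted p = 0.197). The MEF arrays overlapped both sphere groups, and a p that misses the threshold does not show that the levels were equal. From MES, the MEF group differed by -0.62 (SE 0.18, adjusted p = 0.0107) and passage 5 by -0.50 (SE 0.18, adjusted p = 0.0345). Both differences were under 2-fold, with no overlap of arrays.

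**Figure D2:**
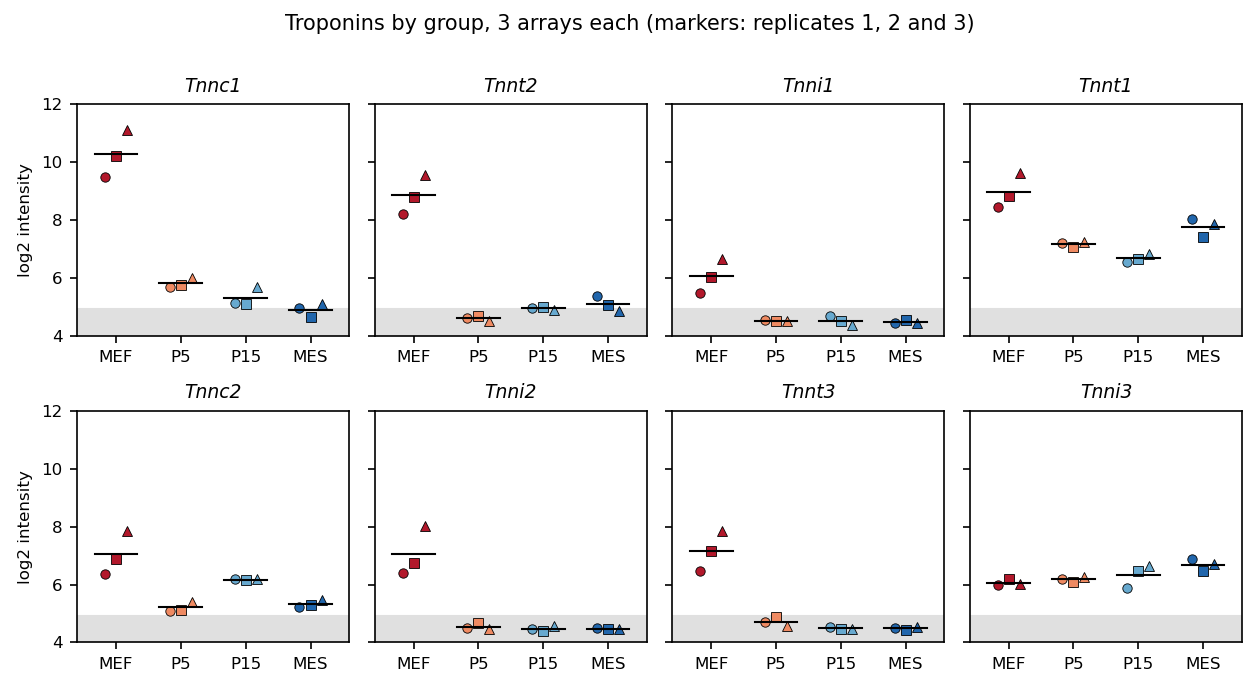
Log2 intensity (y axis) of the 8 tested troponin genes in MEF, passage 5 (P5) spheres, passage 15 (P15) spheres and MES, 1 panel per gene. Circles, squares and triangles are replicates 1, 2 and 3, lines are group means, and the grey band lies below 4.92, the lowest level of a probe above background on any array. Tnnt2, Tnni1, Tnni2 and Tnnt3 leave the band in the MEF group on all 3 arrays and lie in or near it elsewhere, while Tnni3 lies between 5.90 and 6.87 throughout.

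Promoter windows in RefSeq, on build GRCm38.p6, were available for 26 of the 29 genes and run from 250 bases before to 50 after a transcription start. The others, Myh11, Tnni2 and Tnnt3, are named only. The letters CATTCC, the core of the element known to bind TEAD factors in muscle genes, were searched on both strands, as were TATAAA and the CArG box, which serum response factor is known to bind and which reads the same way on both strands. CATTCC was found in windows of 11 of the 26 genes, TATAAA in 6 and the CArG box in 3 (Myl3, Myl6 and Myl7). By window this was 11, 6 and 3 of 34 member windows, against 14.7%, 13.6% and 1.63% of all 32851 windows. The 120 bases before the start are shown for 4 genes whose levels fell at both passages and that hold CATTCC there, with the match in capitals, as CATTCC or as its reverse complement GGAATG. They lie on GRCm38.p6 at chr14:31208192-31208311 (plus strand) for Tnnc1, chr1:135836214-135836333 (plus) for one start of Tnnt2, chr9:67049214-67049333 (minus) for Tpm1 and chr1:66945057-66945176 (minus) for Myl1, each written on the gene's strand.
Tnnc1: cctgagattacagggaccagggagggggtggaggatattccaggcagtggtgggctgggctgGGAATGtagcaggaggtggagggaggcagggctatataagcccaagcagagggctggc
Tnnt2: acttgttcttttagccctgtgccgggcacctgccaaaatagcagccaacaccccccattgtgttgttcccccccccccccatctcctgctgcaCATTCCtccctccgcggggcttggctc
Tpm1: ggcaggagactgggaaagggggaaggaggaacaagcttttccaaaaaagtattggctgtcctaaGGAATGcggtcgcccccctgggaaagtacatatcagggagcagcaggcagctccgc
Myl1: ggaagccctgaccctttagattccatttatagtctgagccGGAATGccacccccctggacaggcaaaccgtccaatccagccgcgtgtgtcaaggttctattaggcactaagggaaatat
The match begins 58 bases upstream in Tnnc1, 27 in Tnnt2, 56 in Tpm1 and 80 in Myl1. A match describes the letters and is no evidence of binding.

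Among heavy chains, Myh7, the slow and beta-cardiac gene, had 5.77, 5.21 and 5.22 at passage 5 and 5.50, 5.34 and 4.92 at passage 15, against 7.51, 7.83 and 8.26 on the arrays labelled MEF. The difference was -2.47 at passage 5 (SE 0.22, adjusted p = 7.76e-06) and -2.61 at passage 15 (SE 0.22, adjusted p = 1.17e-06). Neither sphere group overlapped the MEF group, while the sphere groups overlapped each other. At passage 15 it was above background on 2 of 3 arrays. These values come from 1 of its 2 probes, and the other was not above background on any array. Myh6 and Myh7 are close paralogs, and how far their probes cross-hybridise is not given in the sources used here.

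Myh11, the smooth muscle heavy chain, was above background on the 3 MEF arrays alone, at 5.42, 6.0 and 6.42. It was at least 2.01-fold lower at passage 5 and at least 1.73-fold lower at passage 15 (fitted differences -1.44 and -1.22, adjusted p = 0.000152 and 0.000163). Without MEF replicate 3 the passage 15 value was -0.98 and fell under 2-fold.

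Myh9, the main heavy chain of non-muscle myosin IIA, had 12.59, 12.46 and 12.34 at passage 5 and 11.52, 11.34 and 11.66 at passage 15, against 13.39, 13.61 and 13.96 on the arrays labelled MEF. The 3 groups did not overlap, and MES stood at 11.71, 11.69 and 11.75. The difference was -1.19 at passage 5 (SE 0.15, adjusted p = 0.000103) and -2.14 at passage 15 (SE 0.15, adjusted p = 4.01e-07). The passage 5 value was -0.97, under 2-fold, within chip 2 alone.

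Myh10, the heavy chain of non-muscle myosin IIB, had 2 tested probes that disagreed. Probe 2640673 fell at passage 5 (-1.32, SE 0.22, adjusted p = 0.000675) and was -0.59 at passage 15, under 2-fold. Probe 100730402 was not called at passage 5 (-0.98, SE 0.55, adjusted p = 0.228) and was called lower at passage 15 (-2.05, adjusted p = 0.00563). That value rests in part on passage 15 replicate 3, which stood at 6.49 where replicates 1 and 2 stood at 9.23 and 8.97. Without it the difference was -1.18, and the first probe showed no such gap, at 7.91, 8.03 and 8.25.

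The third non-muscle heavy chain gene, Myh14, was above background on all arrays at passage 5 alone, at 5.20, 5.24 and 5.21. It was called in no comparison, and at passage 5 it was at least 1.18-fold higher than on the arrays labelled MEF (adjusted p = 0.0126), where it was above background on 0 of 3.

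Light chains went in both directions. Myl4, the essential light chain of atrial and embryonic muscle, had 9.97, 9.66 and 9.46 at passage 5 and 8.89, 8.91 and 9.01 at passage 15, against 10.91, 11.18 and 11.37 on the arrays labelled MEF. In MES it stood at 11.67, 11.32 and 11.42, and the MEF group differed from MES by -0.32 (SE 0.16, adjusted p = 0.106). The difference was -1.45 at passage 5 (SE 0.16, adjusted p = 3.79e-05) and -2.21 at passage 15 (SE 0.16, adjusted p = 4.78e-07).

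Myl1, the fast skeletal essential light chain, was above background on the MEF arrays alone, at 5.22, 5.60 and 5.98. It was at least 1.58-fold lower at passage 5 and at least 1.36-fold lower at passage 15. Its fitted differences of -1.10 and -1.13 became -0.91 and -0.94 without MEF replicate 3, under 2-fold.

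Myl3 had 5.81, 6.06 and 6.83 at passage 5, and was not above background on any array of the other groups. It was at least 2.38-fold higher than on the arrays labelled MEF (adjusted p = 4.41e-05), with a fitted difference of 1.81 (SE 0.21). With an offset of 50 the fitted difference was 0.99, under 2-fold, which left 0 members called higher at passage 5. Within chip 2 the value was 1.53, and between the arrays of chip 3 it was 2.37. Markers of primitive endoderm moved with it: 7 of 7 were above background at passage 5, with a summed intensity of 5819 to 8184 there, against 976 to 1364 on the arrays labelled MEF. At passage 15 the sum was 998 to 1252 and in MES 1099 to 1163. Sox17 and Foxa2, 2 of these markers, were not above background on any MEF or MES array, and their part in the Myl3 result was not tested.

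Myl2, the regulatory light chain of ventricular and slow muscle, had 5.86, 6.42 and 6.54 at passage 15, against 4.68, 4.97 and 4.63 on the arrays labelled MEF, where it was not above background. It was at least 2.45-fold higher (adjusted p = 3.42e-05), with a fitted difference of 1.51 that fell under 2-fold with the authors' deposited table (0.91) and with an offset of 50 (0.87). At passage 5 it stood at 5.08, 5.20 and 5.46, above background on all 3 arrays, and was not called (at least 1.2-fold higher, adjusted p = 0.0941).

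Myl7, the atrial regulatory light chain, had 7.18, 7.50 and 7.58 at passage 15 and 6.54, 6.62 and 6.99 at passage 5, against 5.85, 5.95 and 6.05 on the arrays labelled MEF. The 3 groups did not overlap. It rose by 1.47 at passage 15 (SE 0.17, adjusted p = 1.38e-05) and was 0.77 at passage 5 (SE 0.17, adjusted p = 0.00481), under 2-fold. With arrays scaled to a common median the passage 15 value was 0.82, under 2-fold.

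**Figure D3:**
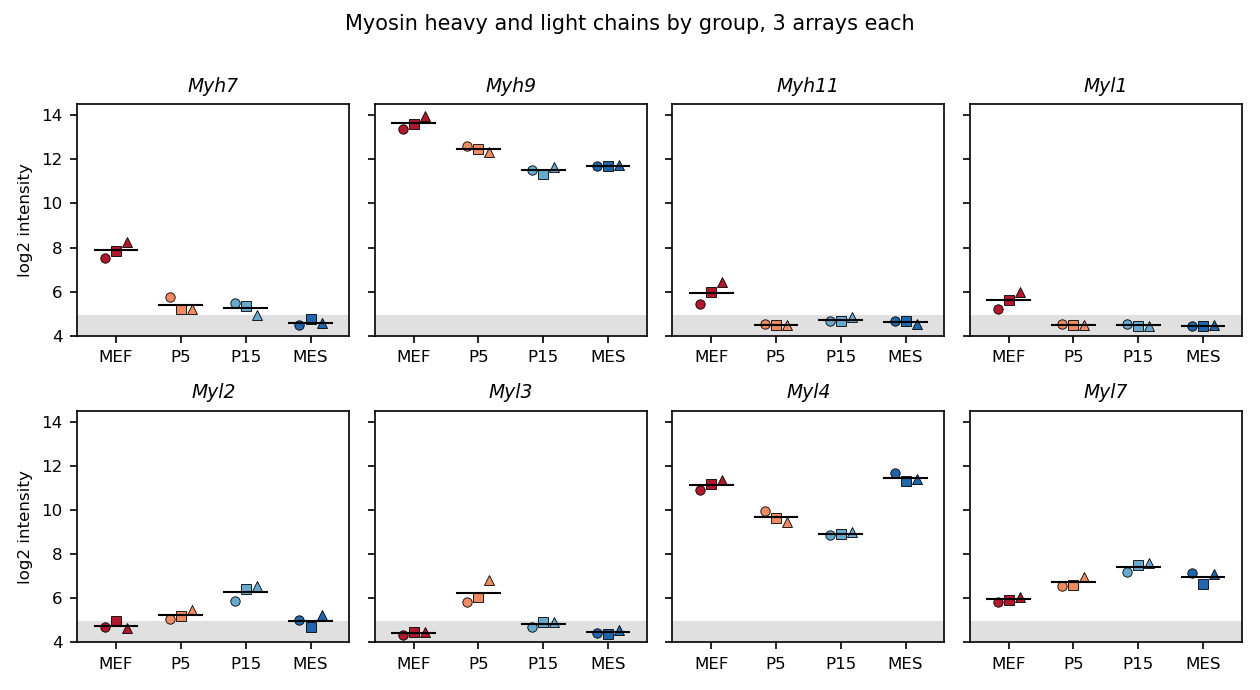
Log2 intensity (y axis) of 3 heavy chain genes and 5 striated light chain genes in MEF, passage 5 (P5) spheres, passage 15 (P15) spheres and MES. Circles, squares and triangles are replicates 1, 2 and 3, lines are group means, and the grey band lies below 4.92. Myl3 stands clear of the band at passage 5 and lies in it or at its edge in the other groups, Myl2 is highest at passage 15, and Myl4 is lower in both sphere groups than in MEF and MES.

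Myl3 and Myl7 were 2 of the 3 genes with a CArG box in their window, and both windows also held CATTCC. Myl3 and Myl7 were each called higher than on the arrays labelled MEF in 1 sphere group. Myl7 was also 0.77 higher at passage 5, under 2-fold. The 120 bases before the start are shown for these genes, with the CArG box in capitals. They lie on GRCm38.p6 at chr9:110763558-110763677 (plus strand) for Myl3 and chr11:5898783-5898902 (minus) for Myl7, each on the gene's strand.
Myl3: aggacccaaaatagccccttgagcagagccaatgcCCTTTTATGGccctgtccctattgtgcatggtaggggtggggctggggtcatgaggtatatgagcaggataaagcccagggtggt
Myl7: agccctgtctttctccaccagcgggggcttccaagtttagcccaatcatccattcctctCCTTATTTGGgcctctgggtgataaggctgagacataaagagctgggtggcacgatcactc
The box starts 85 bases before the start in Myl3 and 61 in Myl7.

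Of the non-muscle light chain genes, Myl12a, which encodes a regulatory chain, fell at passage 5. It had 6.96, 6.93 and 6.34 there, against 7.77, 8.10 and 7.88 on the arrays labelled MEF (-1.17, SE 0.19, adjusted p = 0.000507). Without passage 5 replicate 3 the value was -0.97, and at passage 15 it was -0.21. Myl12b, its near-identical neighbour, had 3 probes that gave -0.65, -0.53 and 0.37 at passage 5, none called. The 2 probes of Myl6, the essential chain paired with non-muscle myosin, gave -0.85 and -0.63. The brighter probe of Myl6b gave -0.61, and its other probe was above background at passage 5 alone.

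Tpm1, which makes striated, smooth and cytoplasmic tropomyosins, had 9.68, 9.20 and 8.46 at passage 5 and 8.35, 8.52 and 8.55 at passage 15, against 11.76, 11.96 and 12.80 on the arrays labelled MEF. The difference was -3.06 at passage 5 (SE 0.29, adjusted p = 1.18e-05) and -3.70 at passage 15 (SE 0.29, adjusted p = 7.25e-07). The sphere and MEF arrays did not overlap. The passage 5 difference was -2.42 within chip 2 and -4.34 between the single arrays of chip 3, where the passage 5 array was the lowest and the MEF array the highest of its group.

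Tpm2, the beta-tropomyosin gene of skeletal and smooth muscle and fibroblasts, gave the same direction on both probes. Its brighter probe had 9.38, 8.88 and 8.19 at passage 5 and 7.60, 7.87 and 8.02 at passage 15, against 11.30, 11.69 and 12.66 on the arrays labelled MEF. The difference was -3.06 at passage 5 (SE 0.33, adjusted p = 2.79e-05) and -4.05 at passage 15 (SE 0.33, adjusted p = 9.03e-07). Within chip 2 the passage 5 value was -2.36, and between the arrays of chip 3 it was -4.46. Its other probe was above background on the MEF arrays alone (7.47, 8.19 and 9.10), and was at least 9.93-fold lower at passage 5 and at least 8.56-fold lower at passage 15.

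Tpm3, which encodes slow skeletal and cytoplasmic tropomyosins, had 4 probes, all above background on all 12 arrays, and they disagreed at passage 15. Probe 6650471 stood at 12.53, 12.52 and 12.42 at passage 15, against 11.22, 11.05 and 10.87 on the arrays labelled MEF, and rose by 1.44 (SE 0.25, adjusted p = 0.000244). Probe 5670167 stood at 10.12, 10.13 and 10.20, against 11.54, 11.66 and 11.64, and fell by 1.46 (SE 0.16, adjusted p = 6.89e-06). Neither pair of groups overlapped. Probe 670600 gave 0.96 (SE 0.17, adjusted p = 0.000358), under 2-fold, and probe 3170296 gave 0.19 (SE 0.18, adjusted p = 0.379). At passage 5 no Tpm3 probe was called, with differences of -0.39 to -0.08. Which transcripts each probe matches is not given in the sources used here, so no direction can be stated for the gene.

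**Figure D4:**
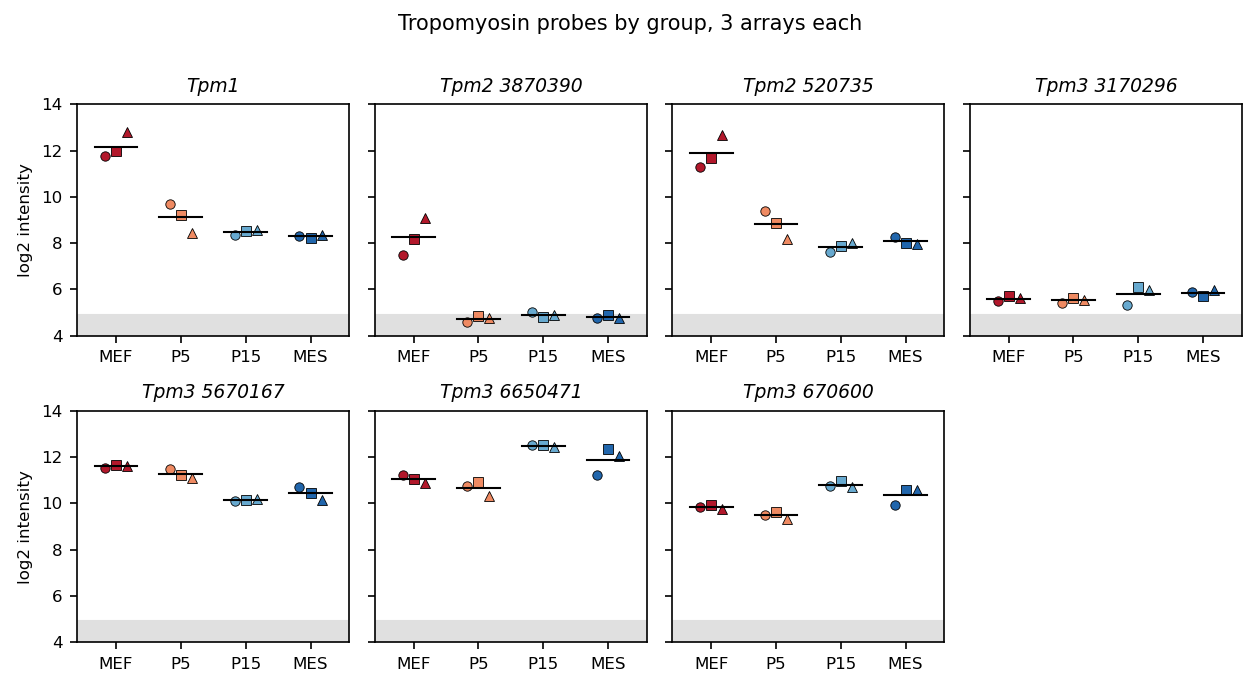
Log2 intensity (y axis) of the 7 tropomyosin probes in MEF, passage 5 (P5) spheres, passage 15 (P15) spheres and MES, with the probe number after the symbol where a gene has several. Circles, squares and triangles are replicates 1, 2 and 3, lines are group means, and the grey band lies below 4.92. Tpm1 and both Tpm2 probes are highest in the MEF group, whereas Tpm3 probes 6650471 and 5670167 move in opposite directions at passage 15.

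Set directly against passage 5, passage 15 spheres had 3 of the 34 probes higher and 2 lower, where 9.13% of all probes were higher and 11.9% lower. Myl2 and 2 probes of Tpm3 were higher. Myl3 and another Tpm3 probe were lower, and Myl3 was at least 2.11-fold lower. The Myl3 and Myl2 calls fell below 2-fold with the authors' deposited table (-0.81 and 0.61) and with an offset of 50 (-0.81 and 0.64). Tpm3 probe 6650471 rose by 1.83 (SE 0.25, adjusted p = 6.79e-05), with 12.53, 12.52 and 12.42 at passage 15 against 10.76, 10.91 and 10.31 at passage 5. Myl2 was 1.03 higher (SE 0.20, adjusted p = 0.000864), a call that dropped below 2-fold without passage 5 replicate 1 (0.95), passage 15 replicate 2 (0.96) or passage 15 replicate 3 (0.90). None of the 8 troponin probes was called in this comparison by limma, and 1 of them, Tnnc2, had an adjusted p under 0.05 (0.96, SE 0.27, adjusted p = 0.00911). Of the 21 probes above background on all 12 arrays, 2 were higher and 1 lower. The split depends on scaling: with arrays scaled to a common median, 1 of the 34 was higher and 10 lower, and Myl2 (0.44) and Tpm3 probe 670600 (0.52) were no longer called.

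Several members lay just under 2-fold between the passages and passed it when 1 array was left out. The brighter Tpm2 probe differed by -0.99 (adjusted p = 0.0211), and gave -1.30 without passage 5 replicate 3, -1.01 without passage 15 replicate 2 and -1.08 without passage 15 replicate 3. Myh9, at -0.95 (adjusted p = 0.000245), gave -1.02 without passage 5 replicate 3 and -1.03 without passage 15 replicate 3. Myl12a, at 0.96 (adjusted p = 0.000944), gave 1.00 to 1.06 without replicate 1 or 2 of either passage. Tnnc2 gave 1.06 without passage 5 replicate 3, and probe 6100152 of Myl6, at 0.88, gave 1.02 without passage 15 replicate 1.

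Against MES, passage 5 spheres had 1 of 34 probes higher and 3 lower, where 9.82% of all probes were higher and 5.55% lower. Myl3 was at least 2.17-fold higher (adjusted p = 3.59e-05), a call lost with an offset of 50 (0.98). Myl4 was 1.78 lower (SE 0.16, adjusted p = 7.72e-06), Tpm3 probe 6650471 was 1.20 lower (SE 0.25, adjusted p = 0.00159), and Myl6 probe 6100152 was 1.07 lower (SE 0.15, adjusted p = 0.000136). The Tpm3 call dropped below 2-fold without MES replicate 2 (-0.97), and the Myl6 call without passage 5 replicate 3 (-0.98). Tnnc1, not above background in MES, was at least 1.62-fold higher (adjusted p = 0.0264) and was not called. Tpm1 was 0.81 higher (SE 0.29, adjusted p = 0.0343), under 2-fold, and passed at 1.14 without passage 5 replicate 3. Of the 21 probes above background on all 12 arrays, 0 were higher and 3 lower. At an unadjusted p under 0.05 in limma, 4 of them were higher and 8 lower. With arrays scaled to a common median the split over the 34 probes turned to 9 higher and 1 lower, and the Tpm3 (-0.49) and Myl6 (-0.35) calls were lost.

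Passage 15 spheres and MES were measured on the same chip. Of the 34 probes, 1 was higher in passage 15 spheres and 2 were lower, where 3.84% of all probes were higher and 3.42% lower. Myl2 was 1.29 higher (SE 0.20, adjusted p = 0.000792), against 5.00, 4.70 and 5.25 in MES, where it was above background on 1 of 3 arrays. Myl4 was 2.54 lower (SE 0.16, adjusted p = 3.18e-06), and each passage 15 array lay below each MES array. Tnnt1 was 1.09 lower (SE 0.25, adjusted p = 0.00818), and dropped below 2-fold without MES replicate 1 (-0.96). The Myl2 and Tnnt1 calls were also lost with the authors' deposited table (0.76 and -0.86) and with an offset of 50 (0.77 and -0.89). No tropomyosin probe was called by limma, with an adjusted p under 0.05 for 0 of 7 and an unadjusted p under 0.05 for 2. Tpm1 differed by 0.17 (SE 0.29) and the brighter Tpm2 probe by -0.25 (SE 0.33). Of the 21 probes above background on all 12 arrays, 0 were higher and 2 lower. At an unadjusted p under 0.05 in limma, 6 of them were higher and 3 lower.

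The arrays labelled MEF had 15 of the 34 probes higher than MES and 1 lower, where 12.5% of all probes were higher and 8.49% lower. By class, 9 of 14 striated, 1 of 12 non-muscle and 4 of 7 tropomyosin probes were higher, and Myh11 was at least 1.78-fold higher. The median was 1.39 for the 14 striated probes, and it turned to -0.32 for the 5 above background on all 12 arrays, of which 2 were higher and 1 lower. Tnnc1 was at least 35.7-fold higher (adjusted p = 2.17e-07) and Myh7 at least 6.73-fold higher (adjusted p = 4.5e-07). Tpm1 was 3.87 higher (SE 0.29, adjusted p = 9.19e-07), and Myh9 1.93 higher (SE 0.15, adjusted p = 1.28e-06). Tnnt1 was 1.20 higher (SE 0.25, adjusted p = 0.00146), which fell to 0.87 without MEF replicate 3. Myl7 was the 1 member called lower (-1.01, SE 0.17, adjusted p = 0.000339), and its value fell under 2-fold without MEF replicate 1 (-0.97), MES replicate 1 (-0.92) or MES replicate 3 (-0.95), and with the authors' deposited table (-0.70), an offset of 50 (-0.73) or median scaling (-0.38). Of the 21 probes above background on all 12 arrays, 6 were higher and 1 lower.

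Markers of other cell types that could carry striated transcripts were read beside these results. The factors that define skeletal myoblasts, Myod1, Myf5, Myf6, Myog, Pax3 and Pax7, were above background on 0 arrays in all 4 groups. The other 3 of the 9 markers of that list, Cdh15, Chrna1 and Des, were above background on the MEF arrays, and the list's summed intensity was 268 to 282 at passage 5 and 270 to 284 at passage 15, against 618 to 975 on the arrays labelled MEF. Of 9 cardiomyocyte markers, Gata4, Actc1, Tbx5 and Nppa were above background on all MEF arrays. Gata4 was so on all arrays of the other groups too, and Actc1 and Nppa on all passage 15 and MES arrays. Nkx2-5 was above background on all passage 15 arrays, and Nppb on all passage 5 and MES arrays. Hand1, Hand2 and Pln were above background on 0 arrays in every group. That list summed to 762 to 968 at passage 5 and 450 to 525 at passage 15, against 1393 to 2676 on the arrays labelled MEF. The MEF sum rests mostly on Actc1, with probes that averaged 9.98 and 9.02 on the log2 scale. Gata4, also a primitive endoderm marker, went the other way at passage 5, with 8.89 against 6.02 in the MEF group. The sum thus does not show a joint fall of the list. In MES the skeletal list summed to 282 to 301 and the cardiac list to 457 to 498.

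The smooth muscle list moved further in its linear sum. This sum was 753 to 1093 at passage 5 and 591 to 706 at passage 15, against 5106 to 12710 on the arrays labelled MEF, where 6 of 7 were above background and Cnn1 was not. In MES it was 795 to 1016. The MEF sum rests mostly on the actin genes Actg2 and Acta2, at 12.01 and 10.79 on the log2 scale. Smtn averaged 9.60 in the MEF group, 8.66 at passage 5 and 8.34 at passage 15. Des averaged 5.51, 5.16 and 5.13, and Lmod1 5.86, 5.81 and 4.73. Myocd went the other way at passage 15, with 5.75 against 4.89 in the MEF group. Fibroblast markers summed to 3177 to 8049 at passage 5 and 2802 to 3180 at passage 15, against 26170 to 44800 on the arrays labelled MEF and 4281 to 5082 in MES. The part of these marker levels in the falls of Tnnc1, Tnnt2, Tpm1 and Tpm2 was not tested, and in bulk RNA fewer cells of a type and less RNA per cell cannot be told apart.

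Other sarcomere genes, from a list of 35 of which 28 were on the array, had 18 tested probes. Compared with the arrays labelled MEF, 8 were lower and 1 higher at passage 5, and 8 lower and 2 higher at passage 15. Over all probes 6.02% were lower and 3.92% higher at passage 5, and 15.2% lower and 13.2% higher at passage 15. Acta1, skeletal alpha-actin, averaged 6.05 at passage 5 and 5.40 at passage 15, against 10.81, with differences of -4.76 (SE 0.46, adjusted p = 1.27e-05) and -5.42 (SE 0.46, adjusted p = 1.2e-06). Actc1, cardiac alpha-actin, was lower at both passages, by log2 differences of -4.09 and -3.14 on its brighter probe. At passage 5, Acta1 and Actc1 were above background on 2 of 3 arrays each. Actn2, the alpha-actinin of striated Z-discs, gave -2.98 and -2.78. Atp2a1, the calcium pump of fast muscle, was at least 4.32-fold lower at passage 5 and at least 3.72-fold lower at passage 15. The fast-muscle alpha-actinin gene Actn3 went the other way, rising by 1.74 at passage 5 and 2.38 at passage 15 on its brighter probe. Its other probe was above background on 0 MEF and 0 passage 5 arrays, and was not called at passage 5 (0.20). At passage 15 that probe was at least 3.3-fold higher. Actn3 was chosen for mention after its values were seen.

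Partners and regulators of actomyosin, of which 25 of 29 genes were on the array, had 38 tested probes. Compared with the arrays labelled MEF, 17 were lower and 0 higher at passage 5, and 22 lower and 4 higher at passage 15. The shares over all probes were 6.02% lower and 3.92% higher at passage 5, and 15.2% lower and 13.2% higher at passage 15. In limma at passage 5 with no fold threshold, 0 of the 38 were higher and 25 lower at an adjusted p under 0.05. At an unadjusted p under 0.05, 1 was higher and 27 lower. Actg2, smooth muscle gamma-actin, averaged 6.18 at passage 5 and 4.62 at passage 15, against 12.01 on the arrays labelled MEF, and was at least 116-fold lower at passage 15. Acta2, smooth muscle alpha-actin, was at least 49.6-fold lower at passage 15, and Tagln, the actin-binding protein transgelin, at least 11.3-fold lower. At passage 5 their differences were -5.84, -4.37 and -3.53, and each was above background on 2 of 3 arrays. Mylk, the kinase that phosphorylates myosin regulatory light chains, fell by 2.84 at passage 5. Cald1, caldesmon, which binds tropomyosin and actin, was at least 10.2-fold lower at passage 15.

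Transcriptional regulators of contractile genes, with 21 of 26 genes on the array, had 15 tested probes. Compared with the arrays labelled MEF, 3 were lower and 0 higher at passage 5, and 7 lower and 0 higher at passage 15. The shares over all probes were 6.02% lower and 3.92% higher at passage 5, and 15.2% lower and 13.2% higher at passage 15. At an unadjusted p under 0.05 in limma, 4 of the 15 were higher and 7 lower at passage 15, and 0 higher and 6 lower at passage 5. Mef2c, a factor of muscle and heart development, fell by 2.61 at passage 5 (SE 0.20, adjusted p = 2.37e-06) and had a difference of -1.98 at passage 15, also called. Tbx5, a heart and forelimb factor, was at least 2.17-fold lower at passage 5. Wwtr1, the TEAD coactivator TAZ, fell by 1.93 at passage 15 on its brightest probe (SE 0.38, adjusted p = 0.000678), while another of its probes gave 0.03. Mrtfa, a coactivator of serum response factor, fell by 1.35 at passage 15 (SE 0.19, adjusted p = 5.85e-05).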

How the data were processed

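The deposited raw table holds 1 bead-summary intensity per probe and array in linear units and before any scaling across arrays, with background already subtracted by the authors, since values below 0 occur. Its companion columns hold a detection p-value per probe, per the file headers. A second deposited table holds log2 values that the authors quantile normalized over the 12 arrays, and the series matrix repeats it (largest difference 0). The software behind both tables is not given in the sources used here. RNA was extracted with Trizol, cleaned on columns with DNase and labelled as cRNA, per the labels' protocols.

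Raw intensities were corrected and quantile normalized with neqc (limma 3.58.1, R 4.3.3, offset 16, with the negative-control distribution estimated from the detection columns). Of 46657 probes, 20 with a value turned into a date on 1 of 2 arrays were left out, and 0 of these were members. The annotation gave 1 symbol to 22380 probes and none to 24277. All member symbols matched RefSeq by Entrez ID. The 19444 probes kept had a detection p under 0.05 on every array of some group.

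All 12 arrays entered 1 linear model with 4 group means (limma lmFit and eBayes, 8 residual and 4.54 prior degrees of freedom), with 6 comparisons and Benjamini-Hochberg adjustment over all kept probes in each. SE comes from this model and SD from the 3 arrays of a group. "At least N-fold" was given where the dim group was above background on 0 of 3 arrays and the bright group on 3. It sets the bright group's mean against the dim group's, taken per array as the higher of the probe's own level and the lowest level above background. The number of arrays limits precision. On simulated data for passage 5 against MEF over 19444 probes, 94% of 100 planted changes of 1.5 log2 units and 99% of 100 of 3 units were called, with 0 false calls.

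All members may be named, by the brightest kept probe with the others beside it. Of the 4 further lists (other sarcomere genes, actomyosin partners, regulators of contractile genes and unconventional myosins) the rule names up to 4 called genes with the largest change per comparison. Marker lists for 10 cell types were read, of which those that bear on the members are printed. Members and lists were chosen with earlier results of these data known. Replicate numbers are shared between groups, but same-numbered arrays deviated together with r of -0.13 to 0.298 only, so they were not taken as pairs.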

Additional observations from a re-analysis of the deposited data

Results flagged for a closer look

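For 5 member probes the change against the arrays labelled MEF differed between the passages, by the direct limma test of passage 15 against passage 5. Of the 34 tested probes 3 were higher and 2 lower, where 9.13% of all probes were higher and 11.9% lower. Members were thus called no more often than all probes. Myl3, the ventricular and slow-muscle essential light chain, was above background at passage 5 alone, and was at least 2.11-fold lower at passage 15 (adjusted p = 0.000161), where the fitted difference of -1.38 is taken against background. Myl2, the ventricular regulatory light chain, was 1.03 higher at passage 15 (SE 0.20, adjusted p = 0.000864), and all 3 arrays there exceeded all 3 at passage 5. Both calls fell below 2-fold with the authors' deposited table (-0.81 for Myl3 and 0.61 for Myl2) and with an offset of 50 (-0.81 and 0.64). In Tpm3, probes 6650471 and 670600 were 1.83 and 1.32 higher at passage 15 (adjusted p = 6.79e-05 and 5.56e-05), while probe 5670167 was lower by a difference of -1.12 (SE 0.16, adjusted p = 9.43e-05). Passage 15 was on another chip than passage 5, so chip and passage cannot be told apart for these values. No group had enough arrays for a test of single outlying arrays.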

How the results depend on the processing

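The differences of member probes were recomputed under the alternatives, which gave 3446 values. The fits with chip as a fixed block and with chip 2 alone covered only passage 5 against MEF. The fit with chip as a random block covered all 6 comparisons. The stricter filter and the fit with 1 probe per gene held fewer probes. Of these values 3294 kept their call or lack of one, 67 of them with another sign while called under neither setting. A further 94 gained a call, 58 lost one, and 0 reversed while called. The count of called probes for passage 15 against MES was 3. It became 1 with the authors' deposited table, 1 with an offset of 50 and 7 with no fold threshold. For passage 15 against passage 5 the count of 5 became 3 with the authors' deposited table, 3 with an offset of 50, 11 with median scaling and 17 with no fold threshold, and lay between 5 and 8 when 1 array was left out. The count of 4 for passage 5 against MES became 10 with median scaling and 14 with no fold threshold. The counts for the other 3 comparisons, 18, 19 and 16, stayed within 1.5 times.

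Median scaling moved the median of all probes to -0.74 for passage 15 against passage 5, 0.65 for passage 5 against MES, -0.37 for passage 15 against MEF, 0.30 for MEF against MES and 0.27 for passage 5 against MEF. The share of calls that were higher went with it: 7.63% against 43.5% in the neqc fit, 97.6% against 63.9%, 17.8% against 46.5%, 91.9% against 59.6% and 62.6% against 39.4%, in the same order. Calls of passage 5 against MEF that fell below 2-fold under it were Myh9 (-0.96), Myl12a (-0.88) and probe 2640673 of Myh10 (-0.98), and of passage 15 against MEF, Myl7 (0.82). The dim probes of Myl1 and Myh11 fell below 2-fold against MEF with the authors' deposited table (-0.76 and -0.96 at passage 5) and with an offset of 50 (-0.55 and -0.77), as did Tnni1 with an offset of 50 (-0.84). The rise of Myl3 at passage 5 fell below 2-fold with an offset of 50 (0.99), and that of Myl2 at passage 15 with the authors' deposited table (0.91) and an offset of 50 (0.87). Both probes lost their call for passage 15 against passage 5 under the same 2 settings (-0.81 and -0.81 for Myl3, 0.61 and 0.64 for Myl2). The cause was not tested.

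With replicate number as a replicate block, the counts of called probes were 18, 19, 5, 4, 3 and 16 for passage 5 and passage 15 against MEF, passage 15 against passage 5, passage 5 and passage 15 against MES, and MEF against MES, equal to those with no pairing, and 204 of 204 calls were the same. Chip as a random block changed 0 of 204 calls. Passage 15 and MES shared a chip that held no MEF or passage 5 array. For passage 15 or MES against MEF or passage 5, this block therefore cannot separate chip from group. Low signal over background limits Myl1, Myh11, Tnni1, Myl2 and Myl3, whose calls rest on levels close to the background of the other groups.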

Other observations

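The unconventional myosins, single-headed or cargo motors outside the myosin II family, had 17 of 23 listed genes on the array and 16 tested probes. Against the arrays labelled MEF, 2 were higher and 1 lower at passage 5, and 1 higher and 2 lower at passage 15. Over all probes tested, 3.92% were higher and 6.02% lower at passage 5, and 13.2% higher and 15.2% lower at passage 15. Myo1f averaged 9.56 at passage 5 and 10.60 at passage 15, against 7.28 on the arrays labelled MEF, and rose by 2.28 (SE 0.24, adjusted p = 2.21e-05) and 3.32 (SE 0.24, adjusted p = 3.92e-07). Myo7a, a motor known from hair cells and retina, was above background at passage 5 and not on the arrays labelled MEF, and was at least 3.24-fold higher. At passage 15 it was at least 2.87-fold lower than at passage 5 (adjusted p = 8.52e-06). Myo1d had 7.96 at passage 5 and 6.85 at passage 15, against 9.42 on the arrays labelled MEF, with differences of -1.46 (SE 0.23, adjusted p = 0.0004) and -2.58 (SE 0.23, adjusted p = 1.57e-06). Myo10, a motor of filopodia, was 1.61 lower at passage 15 than at passage 5 (SE 0.15, adjusted p = 6.84e-06). The levels of all probes tested had a median difference of 0.04 at passage 5 and 0.09 at passage 15 against MEF.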
